A study of Mus musculus with 22 samples.

Results

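Growth factors that fibroblasts make for themselves and for neighbouring cells were followed by RNA sequencing in mouse NIH/3T3 fibroblasts. The cells were starved of serum and sampled before and after doxycycline or serum was given. The set held 10 named genes: Hbegf, Areg, Ereg, Vegfa, Vegfc, Fgf2, Fgf7, Pdgfa, Hgf and Igf1. Of these, 8 had values in the table of 11208 genes. Areg and Vegfc were not among its rows and were not analysed there, and every gene of that table had a mean of at least 99.6.

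NIH/3T3 is an established line of immortalized mouse embryonic fibroblasts. A construct switched on by doxycycline had been integrated into the genome of both lines used. In one its insert was the cell cycle transcription factor E2F1 (genotype Dox-inducible E2F1, here the E2F1 line), and the other held the empty vector (Dox-inducible EV, here the EV line). All groups had first been kept for 48 h in 0.25% heat-inactivated fetal bovine serum. The E2F1 line was sampled at 0, 2, 6 and 12 h of 500 ng/ml doxycycline. The EV line was sampled at the same times of doxycycline, and at 2, 6 and 12 h after addition of 10% serum. The EV 0 h libraries served as the reference of both EV series. Each of the 11 groups held 2 libraries of polyadenylated RNA. The labels do not say whether the 2 came from separate cultures, so p-values measure the spread between these libraries, which may be technical. Whether each line was a clone or a pool, and from which species the E2F1 insert came, is not given in the sources used here.

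These proteins are secreted or cell-surface ligands of receptor tyrosine kinases. Hbegf, Areg and Ereg belong to the EGF family: they are made as membrane-anchored precursors, are cut free by ADAM metalloproteases, and bind EGFR and related ErbB receptors. Vegfa and Vegfc act mainly on blood and lymphatic endothelium, Fgf2 on many cell types including fibroblasts, and Fgf7 on epithelium. Pdgfa binds the receptor Pdgfra that fibroblasts carry, Hgf binds Met, and Igf1 binds Igf1r. Serum itself is rich in growth factors, and several EGF-family genes are known as early targets of serum stimulation.

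Sequence near the start site is shown for members of contrasting behaviour and for Vegfc, which is known here from the authors' own comparisons alone. Each run is the 250 bases upstream of a RefSeq start site in GRCm38.p6, on the strand of the gene. Of the 10 genes, 8 were matched in the RefSeq promoter table by symbol. Hbegf and Ereg were not matched, so no motif was searched for them. Capitals mark letters of the motifs searched on both strands. For E2F these were TTTCCCGC, TTTGGCGC, TTTCGCGC and TTTGCCGC. For AP-1 the letters were TGANTCA, for the cyclic AMP response element TGACGTCA, and for the hypoxia element ACGTG or GCGTG. The GC box was searched as GGGCGG, the box that places polymerase near the start as TATAAA, and the serum response element as the CArG box. No match in these 5 runs overlapped another motif. The Pdgfa run is start site 1 of 2 at chr5:138994282-138994531, minus strand, and the Vegfa run is start site 1 of 2 at chr17:46032378-46032627, minus strand. The others lie on the plus strand, Fgf2 at chr3:37348403-37348652, Igf1 at chr10:87860861-87861110 and Vegfc at chr8:54077282-54077531.
Pdgfa: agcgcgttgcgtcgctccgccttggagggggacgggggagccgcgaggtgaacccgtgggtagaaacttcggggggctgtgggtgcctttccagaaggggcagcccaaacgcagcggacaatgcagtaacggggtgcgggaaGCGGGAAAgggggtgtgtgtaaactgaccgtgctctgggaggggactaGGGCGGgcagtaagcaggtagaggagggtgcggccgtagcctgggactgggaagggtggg
Vegfa: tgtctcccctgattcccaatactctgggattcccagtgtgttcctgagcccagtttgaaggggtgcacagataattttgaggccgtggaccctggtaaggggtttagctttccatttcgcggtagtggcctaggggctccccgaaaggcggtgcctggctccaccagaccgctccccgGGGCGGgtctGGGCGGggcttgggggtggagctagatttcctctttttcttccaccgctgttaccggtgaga
Fgf2: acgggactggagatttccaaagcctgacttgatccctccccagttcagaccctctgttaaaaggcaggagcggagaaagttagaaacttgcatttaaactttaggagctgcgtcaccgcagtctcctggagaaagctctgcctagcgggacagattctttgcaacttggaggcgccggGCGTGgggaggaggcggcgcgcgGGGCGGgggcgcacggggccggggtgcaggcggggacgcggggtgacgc
Igf1: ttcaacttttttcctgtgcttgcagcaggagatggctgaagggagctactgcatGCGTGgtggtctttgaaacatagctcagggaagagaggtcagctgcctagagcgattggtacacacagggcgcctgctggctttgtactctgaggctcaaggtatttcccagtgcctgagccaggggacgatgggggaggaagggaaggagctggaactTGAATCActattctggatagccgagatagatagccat
Vegfc: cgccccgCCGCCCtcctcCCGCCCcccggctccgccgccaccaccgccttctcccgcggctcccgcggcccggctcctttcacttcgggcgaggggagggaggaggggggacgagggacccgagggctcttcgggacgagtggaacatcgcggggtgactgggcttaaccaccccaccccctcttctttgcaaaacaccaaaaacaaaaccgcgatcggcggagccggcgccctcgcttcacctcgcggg
The Pdgfa run held an E2F match beginning at base -108, counted back from the start site. It was the only E2F match in the 11 windows of the 8 matched members. An E2F match was present in 4.3% of the 8609 table genes with a RefSeq promoter. The Igf1 run held an AP-1 match at -37, against 5.0% of table genes with one. GC boxes stood in the Pdgfa, Vegfa, Fgf2 and Vegfc runs, against 66.9% of table genes. No CArG box was found in any member window, and 1.3% of table genes had one in the same length. Such matches describe letters in a window and are not binding sites.

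A second sequence feature was read from the longest annotated 3′ untranslated region of each gene, because AU-rich elements there are known to mark short-lived messages. The nonamer TTATTTATT occurred 1 time each in Areg, Ereg and Vegfa and in none of the other members. It was found in 8.7% of 10437 table genes with an annotated 3′ untranslated region, and in 12.2% of the 5297 whose region was between 1159 and 6308 bases long. In the following 26-base windows of the GENCODE M21 transcripts capitals mark the nonamer, which began at base 3441 of the untranslated region in Ereg, at base 1674 in Vegfa and at base 213 in Areg.
Ereg: gtcagtttTTATTTATTttttgttag
Vegfa: gttatcatTTATTTATTggtgctact
Areg: tttaagtgTTATTTATTttatagctc

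The values used are the authors' normalized counts, which had been rounded, and totals ran from 34014608 to 46057140 per library, with both serum 2 h libraries at or above 45073651. E2f1 served as the check of the induced gene: with doxycycline the E2F1 line had 1703 and 1637 before induction, 1535 and 1755 at 2 h, 3806 and 3602 at 6 h, and 2683 and 2845 at 12 h. At 2 h it was therefore not above 0 h in the libraries labelled as induced. EV cells, which lack the insert, read 1635 and 1655 at 0 h, 802 and 740 at serum 2 h, and 4615 and 4247 at serum 12 h. The E2f1 row thus counts the gene of the cells themselves. Whether it also counts the insert is not known, so the 2 h values cannot show if the insert was induced. Ddx3y, a Y-linked gene, separated the lines at 0 h, with 580 and 521 in the E2F1 line and 9 and 4 in the EV line. The 2 h libraries stood furthest from their 0 h levels: EV doxycycline 2 h had 103 and 71, EV serum 2 h had 132 and 170, and E2F1 doxycycline 2 h had 329 and 316. Later EV libraries were also above 0 h with serum, at 48 and 35 at 6 h (2.57; limma adjusted p = 2.01e-05) and 29 and 19 at 12 h (1.79; limma adjusted p = 0.000815), and with doxycycline at 31 and 18 at 6 h (1.80; limma adjusted p = 0.165). Whether any of these libraries held cells or RNA of the other line was not tested, nor was its part in the results. All 12 fibroblast markers were in the table, with summed levels of 704339 to 1444297 per library, while none of the 7 epithelial, 6 endothelial or 3 adipocyte markers was. Of 4 smooth muscle markers only Acta2 was in the table, at 2592 to 66721 per library. Csf1r was the only one of 7 leukocyte markers (33 to 735), and Tubb3 the only one of 4 neural markers (11 to 790).

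The growth factors differed widely in level before stimulation. Per kilobase of exon in the EV 0 h libraries, Fgf7 had a mean level of 4349 normalized counts, above Hgf at 636 and Vegfa at 412.8. Pdgfa stood at 166.1, Hbegf at 115.6, Igf1 at 89.71 and Ereg at 78.49, and Fgf2 was lowest at 17.55. After 2 h of serum the order was different: Vegfa led with 18251.8 per kilobase, followed by Ereg at 7911, Hbegf at 3921, Fgf7 at 3423, Fgf2 at 1951, Pdgfa at 1888, Hgf at 1077 and Igf1 at 52.61. A transcript that was the least abundant member in starved cells, Fgf2, thus stood above Hgf at 2 h of serum. Per kilobase its libraries overlapped those of Pdgfa there (means 1951 and 1888), and the order of these genes was not tested.

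**Figure D1:**
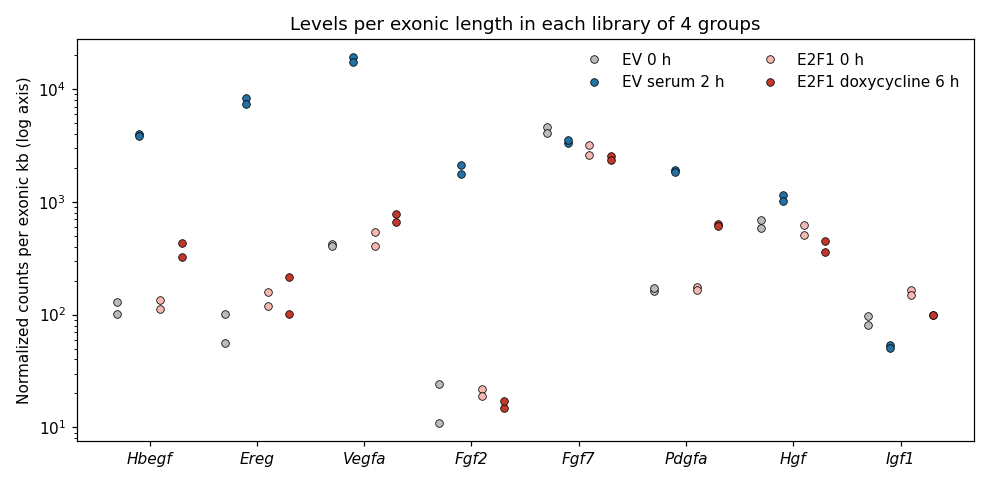
Levels per kilobase of exon for the 8 growth factors in each library of 4 groups, on a log axis, with 1 point per library. Fgf7 was highest in starved cells (mean 4349 in EV 0 h), and Vegfa was highest after 2 h of serum (mean 18251.8).

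All 8 members differed from starved cells at 2 h of serum, and 7 of them also from EV cells given doxycycline for the same time, Fgf7 being the exception. At 2 h after serum, 6 of the 8 members were higher and 2 were lower than in starved EV cells (limma, adjusted p under 0.05). Over all genes 70.9% passed in either direction, 37.5% upward and 33.5% downward, so the bare counts are to be read against a broad response. The median log2 change was 4.30 over the 8 members and 0.03 over all genes. At 6 h 5 were higher and 1 lower, where 67.5% of all genes passed (36.5% upward and 31.0% downward), with a median of 2.40 for the members and 0.03 for all. At 12 h 5 were again higher and 1 lower, where 65.7% of all genes passed (36.0% upward and 29.7% downward), with medians of 1.17 and 0.05. Changes are on the scale of log2(normalized count + 1), and in bulk RNA fewer cells of a type and less RNA per cell cannot be told apart.

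**Figure D2:**
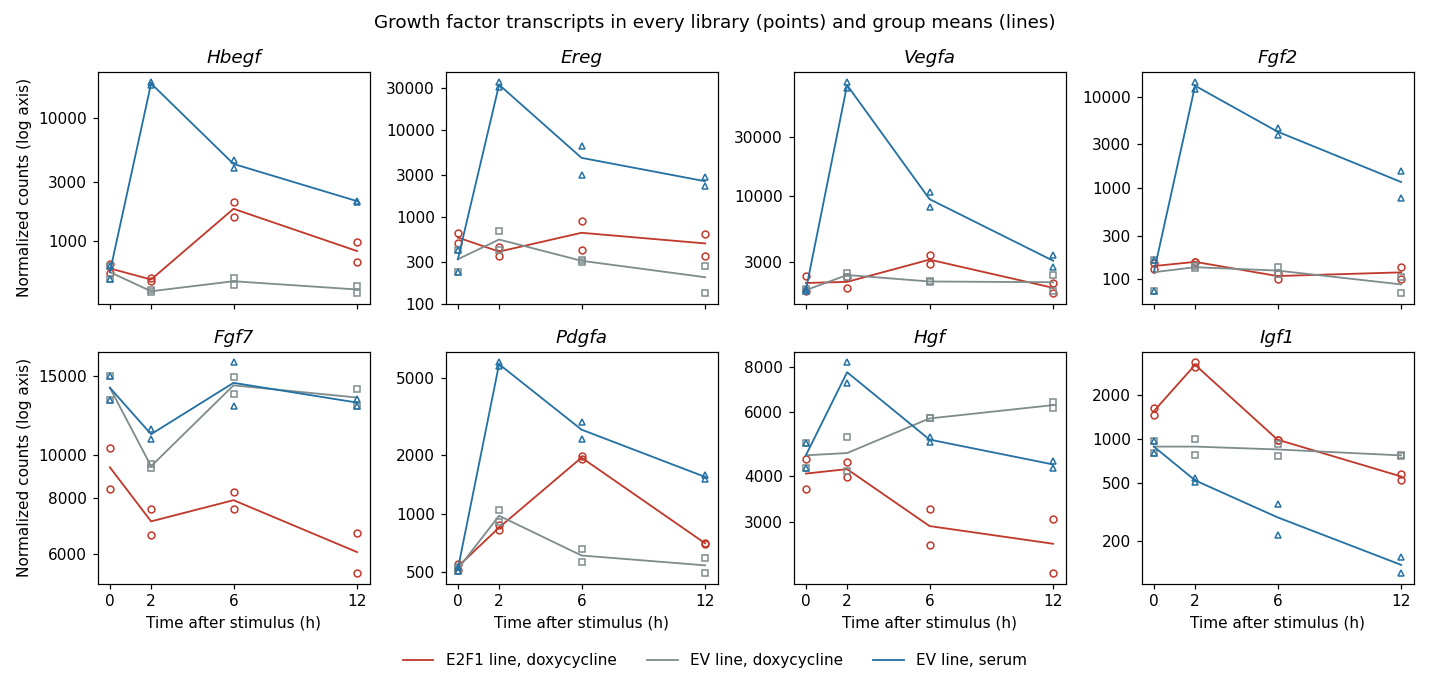
Normalized counts (log axis) of the 8 growth factors against time after stimulus in hours, with a point for each library and lines through the group means. Hbegf, Ereg, Vegfa, Fgf2 and Pdgfa peaked at serum 2 h, Igf1 fell to 154 and 120 at serum 12 h, and Pdgfa and Hbegf were also raised at 6 h in the E2F1 line.

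Among the EGF-family ligands, Hbegf (ENSMUSG00000024486, chr18:36504927-36515805, minus strand) encodes heparin-binding EGF-like growth factor. In EV cells it read 494 and 624 at 0 h, 19352 and 18561 at serum 2 h, 4526 and 3915 at 6 h, and 2127 and 2081 at 12 h. Every serum library was above both starved ones, and the serum time points did not overlap each other. The log2 change was 5.09 ± 0.17 (SE; limma adjusted p = 2.91e-14) at 2 h, a 33.9-fold rise of the mean. It was 2.92 (adjusted p = 5.98e-11) at 6 h and 1.92 (adjusted p = 1.7e-08) at 12 h in limma. The 12 h mean was 11.1% of the 2 h mean.

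Hbegf also rose in the E2F1 line. It read 653 and 546 at 0 h, 501 and 472 at 2 h, 2088 and 1561 at 6 h, and 980 and 676 at 12 h of doxycycline. The 6 h libraries lay above all others of that line and overlapped those of serum 12 h. The log2 change at 6 h was 1.59 ± 0.17 (SE; limma adjusted p = 2.77e-07), a 3.04-fold mean rise. At 12 h the change was 0.45 ± 0.17 (SE; limma adjusted p = 0.0259), and this call rested on single libraries and on the scaling. Without E2F1 0 h replicate 2 Hbegf changed by 0.32 (adjusted p = 0.198), without E2F1 doxycycline 12 h replicate 1 by 0.18 (adjusted p = 0.412), with quantile normalization by 0.38 (adjusted p = 0.0513) and with equal totals by 0.39 (adjusted p = 0.0508), while the lowest adjusted p of any alternative was 0.0024. In the EV line on doxycycline Hbegf stayed between 377 and 504 in all 6 libraries, and no time point passed the test.

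Ereg (ENSMUSG00000029377, chr5:91074622-91093646, plus strand) encodes epiregulin, which binds EGFR and ErbB4. It read 231 and 417 in EV cells at 0 h, 34747 and 30564 at serum 2 h, 6438 and 3019 at 6 h, and 2877 and 2218 at 12 h. Serum libraries were all far above the starved ones, although replicates of this gene differed more than those of other members, by a median of 0.73 log2 units. Its log2 change was 6.71 ± 0.41 (SE; limma adjusted p = 7.55e-11) at 2 h, or 100.8-fold in the means. At 6 h it was 3.82 (limma adjusted p = 1.95e-07) and at 12 h 3.02 (limma adjusted p = 4.38e-06). The 12 h mean was 7.80% of the 2 h mean.

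In the E2F1 line Ereg did not pass the test at any time. Libraries there read 656 and 496 at 0 h, 350 and 443 at 2 h, 889 and 415 at 6 h, and 627 and 357 at 12 h, with overlap of 0 h at 6 and 12 h. At 6 h the limma 95% interval of its log2 change ran from -0.77 to 0.95, so changes of either sign within that span remained compatible with the values. Exons of Gm19610, on the opposite strand, overlap Ereg, and the use of strand in counting is not given in the sources used here. Gm19610 read 371 and 339 at serum 2 h against 77 and 79 in starved EV cells, and reads of the 2 genes cannot be told apart without strand.

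Areg, which encodes the EGFR ligand amphiregulin, has neither a row in the main table nor an entry in the authors' deposited tables of log2 fold changes. Those tables list only genes with an absolute log2 fold change of 2 or more, and none of their adjusted p-values exceeds 0.05. Absence from them can therefore rest on either limit.

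Vegfa (ENSMUSG00000023951, chr17:46016993-46032369, minus strand) encodes the main growth factor of blood vessel endothelium. It read 1796 and 1742 in EV cells at 0 h, 82233 and 74185 at serum 2 h, 10771 and 8253 at 6 h, and 3372 and 2718 at 12 h. These serum libraries were all above the starved pair. Vegfa rose by 5.46 ± 0.16 log2 units (SE; limma adjusted p = 1.11e-14) at 2 h, 44.2-fold in the means. It was 2.41 (adjusted p = 5e-10) at 6 h and 0.77 (adjusted p = 0.000424) at 12 h in limma. The 12 h mean of Vegfa was 3.89% of its 2 h mean, the lowest such share of the 5 strongly raised members.

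In the E2F1 line Vegfa read 2301 and 1738 at 0 h, 1853 and 2269 at 2 h, 3369 and 2849 at 6 h, and 2019 and 1672 at 12 h. Only the 6 h pair stood apart from 0 h, by 0.63 ± 0.16 (SE; limma adjusted p = 0.00358). Without E2F1 0 h replicate 2 the Vegfa change at 6 h was 0.43 (adjusted p = 0.0781), and without E2F1 doxycycline 6 h replicate 1 it was 0.51 (adjusted p = 0.0514), against 0.000894 at the lowest over all alternatives. EV doxycycline libraries ranged from 1755 to 2420 with no call.

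Vegfc, the lymphatic member of the family, could be described only from the authors' deposited tables. There its log2 fold change in the E2F1 line was 6.8 at 6 h (adjusted p 0.000707), at rank 2 by that value among 264 listed genes. At 12 h the authors' deposited table gave 5.5 (adjusted p 2.88e-06), at rank 12 of 510 genes. Vegfc was not listed in the authors' deposited tables for serum, for the EV line on doxycycline or for E2F1 at 2 h, which can rest on either limit of those tables. The Vegfc values are those of the authors, and the levels behind them were not analysed here.

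Fgf2 (ENSMUSG00000037225, chr3:37348346-37410108, plus strand) encodes basic fibroblast growth factor, which leaves cells without a classical signal peptide and signals with heparan sulfate. In EV cells it read 164 and 74 at 0 h, 14392 and 12065 at serum 2 h, 3775 and 4521 at 6 h, and 1540 and 784 at 12 h. It had the largest estimated rise of the members at each time, but its order against Ereg was not tested and turned at 2 and 12 h without EV 0 h replicate 2, where Fgf2 rose by 6.32 and Ereg by 7.13 at 2 h, and by 2.74 and 3.45 at 12 h. Fgf2 rose by 6.89 ± 0.32 log2 units (SE; limma adjusted p = 2.21e-12) at 2 h, 111.2-fold in the means. At 6 h it was 5.22 (limma adjusted p = 1.37e-10), and at 12 h 3.31 (limma adjusted p = 6.67e-08). The 12 h mean was 8.78% of that at 2 h.

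Doxycycline gave no call for Fgf2 in either line. In the E2F1 line all 8 libraries lay between 100 and 155, and in the EV line the doxycycline libraries lay between 70 and 138. The limma 95% interval of the E2F1 change at 6 h was -1.03 to 0.31. Exons of Nudt6, on the opposite strand, and of Gm43439 overlap Fgf2, and neither gene is in the table.

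Fgf7 (ENSMUSG00000027208, chr2:126034658-126091185, plus strand) encodes keratinocyte growth factor, a signal from mesenchyme to epithelium. It was high throughout and moved little, between 5434 and 16087 in the 22 libraries. EV cells read 14984 and 13266 at 0 h, 10844 and 11394 at serum 2 h, 16087 and 12883 at 6 h, and 12854 and 13313 at 12 h. It was lower at serum 2 h (log2 change -0.34 ± 0.12 SE; limma adjusted p = 0.0166), and no later call was made. That call was lost without EV 0 h replicate 1 (Fgf7 -0.26, adjusted p = 0.134) and without EV serum 2 h replicate 1 (-0.31, adjusted p = 0.0866), against a lowest adjusted p of 8.91e-06 over all alternatives. EV doxycycline 2 h libraries, at 9514 and 9341, were also below both starved EV libraries, with a log2 change of -0.58 ± 0.12 (SE; limma adjusted p = 0.00768). Serum and doxycycline at 2 h differed by 0.24 (limma adjusted p = 0.0895), so a fall particular to serum was not shown. In the EV doxycycline 2 h comparison, the Fgf7 call was lost without EV 0 h replicate 1 (-0.49, adjusted p = 0.0617) and without EV doxycycline 2 h replicate 2 (-0.57, adjusted p = 0.0754), with 0.00301 as the lowest adjusted p over all alternatives.

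In the E2F1 line Fgf7 read 10379 and 8373 at 0 h, 6632 and 7565 at 2 h, 8259 and 7572 at 6 h, and 6684 and 5434 at 12 h. All 6 doxycycline libraries of that line were below both 0 h libraries. The change passed the test at 12 h alone, with -0.63 ± 0.12 (SE; limma adjusted p = 0.000194). At 2 h it was -0.40 (limma adjusted p = 0.106) and at 6 h -0.24 (limma adjusted p = 0.107).

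Pdgfa (ENSMUSG00000025856, chr5:138976014-138997370, minus strand) encodes the A chain of platelet-derived growth factor. In EV cells it read 504 and 532 at 0 h, 6012 and 5764 at serum 2 h, 2979 and 2437 at 6 h, and 1574 and 1513 at 12 h. Serum groups were fully separate from each other and from the starved pair. Pdgfa rose by 3.50 ± 0.12 log2 units (SE; limma adjusted p = 3.17e-14) at 2 h, 11.4-fold in the means. It was 2.38 (adjusted p = 1.04e-11) at 6 h and 1.57 (adjusted p = 2.4e-09) at 12 h in limma. Its 12 h mean was 26.2% of the 2 h mean, a higher share than for Hbegf, Ereg, Vegfa or Fgf2.

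Pdgfa had the largest rise of the 8 members in the E2F1 line. It read 552 and 513 at 0 h, 870 and 823 at 2 h, 1975 and 1910 at 6 h, and 698 and 706 at 12 h. No doxycycline library overlapped the 0 h pair, and the 6 h libraries stood above both serum 12 h libraries. The log2 change was 1.87 ± 0.12 (SE; limma adjusted p = 3.73e-10) at 6 h, 3.65-fold in the means. At 2 h it was 0.67 ± 0.12 (SE; limma adjusted p = 0.0052) and at 12 h 0.40 ± 0.12 (SE; limma adjusted p = 0.00608). For Pdgfa, leaving out E2F1 0 h replicate 2 took the 2 h change to 0.62 (adjusted p = 0.114) and the 12 h change to 0.35 (adjusted p = 0.0524), and leaving out E2F1 doxycycline 2 h replicate 1 took the 2 h change to 0.63 (adjusted p = 0.0813). The lowest adjusted p over all alternatives was 0.00445 at 2 h and 0.00608 at 12 h.

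Pdgfa was also higher in the EV line at 2 h of doxycycline, at 906 and 1042, both above the starved pair, in the libraries where Ddx3y read 103 and 71. This change was 0.91 ± 0.12 (SE; limma adjusted p = 0.000277). At 6 h the EV libraries read 562 and 653 and at 12 h 589 and 492, with no call. The rise at 2 h of doxycycline was therefore seen in both lines, and the difference between them was -0.24 ± 0.16 (SE; limma adjusted p = 0.83). Exons of 6330403L08Rik, on the opposite strand, overlap Pdgfa. It read 650 and 732 at 6 h in the E2F1 line against 455 and 393 at 0 h, and 873 and 853 at serum 2 h against 442 and 424.

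Hgf (ENSMUSG00000028864, chr5:16553495-16620152, plus strand) encodes hepatocyte growth factor, a mesenchymal signal to cells that carry Met. EV cells read 4209 and 4931 at 0 h, 8237 and 7246 at serum 2 h, 5129 and 4969 at 6 h, and 4227 and 4397 at 12 h. It was raised at serum 2 h, where both libraries exceeded all other 20, with a log2 change of 0.76 ± 0.14 (SE; limma adjusted p = 0.000119). With quantile normalization this Hgf change was 0.31 (adjusted p = 0.0562), against a lowest adjusted p of 0.000113 over all alternatives. In the EV line on doxycycline Hgf read 5776 and 5773 at 6 h and 6168 and 6401 at 12 h, above the starved pair, but the changes of 0.34 (limma adjusted p = 0.79) and 0.46 (limma adjusted p = 0.0818) did not pass.

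In the E2F1 line Hgf fell. It read 4452 and 3688 at 0 h, 3985 and 4388 at 2 h, 3241 and 2593 at 6 h, and 3052 and 2162 at 12 h. Libraries at 6 and 12 h were below both 0 h libraries. The log2 change was -0.48 ± 0.14 (SE; limma adjusted p = 0.00943) at 6 h and -0.66 ± 0.14 (SE; limma adjusted p = 0.000687) at 12 h. At 6 h the Hgf change was -0.35 (adjusted p = 0.115) without E2F1 0 h replicate 1 and -0.32 (adjusted p = 0.131) without E2F1 doxycycline 6 h replicate 2, with 0.000262 as the lowest adjusted p over all alternatives. Gm43489 overlaps exons of Hgf on the same strand and is not in the table.

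Igf1 (ENSMUSG00000020053, chr10:87858265-87937042, plus strand) encodes insulin-like growth factor 1, and it was the member that serum lowered most. EV cells read 807 and 970 at 0 h, 537 and 505 at serum 2 h, 361 and 220 at 6 h, and 154 and 120 at 12 h. Each serum time point lay below the one before it without overlap. The log2 change was -0.76 ± 0.19 (SE; limma adjusted p = 0.00127) at 2 h, -1.65 (adjusted p = 3.71e-07) at 6 h and -2.69 (adjusted p = 1.23e-09) at 12 h in limma. The 12 h mean was 15.4% of the mean in starved cells.

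The E2F1 line showed a rise and then a fall of Igf1. It read 1648 and 1465 at 0 h, 3359 and 3114 at 2 h, 991 and 992 at 6 h, and 528 and 580 at 12 h. The 2 h pair was above every other library of the study, and the 12 h mean was 35.6% of the 0 h mean. Igf1 changed on the log2 scale by 1.06 ± 0.19 (SE; limma adjusted p = 0.00593) at 2 h, -0.65 ± 0.19 (SE; limma adjusted p = 0.00745) at 6 h and -1.49 ± 0.19 (SE; limma adjusted p = 1.89e-06) at 12 h. EV doxycycline libraries lay between 765 and 997 with no call. At 2 h the Igf1 change was 0.97 (adjusted p = 0.12) without E2F1 0 h replicate 2, 1.00 (adjusted p = 0.0882) without E2F1 doxycycline 2 h replicate 1 and 1.11 (adjusted p = 0.0551) without E2F1 doxycycline 2 h replicate 2, with 4.77e-05 as the lowest adjusted p over all alternatives. At 6 h it was -0.56 (adjusted p = 0.0618) without E2F1 0 h replicate 1, with 0.000576 as the lowest.

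Counted over the 8 members, doxycycline in the E2F1 line gave 2 higher and 0 lower at 2 h (Pdgfa and Igf1), where 1.86% of all genes passed (0.865% upward and 0.990% downward). Without single libraries this count fell to 0, as both calls were lost without E2F1 0 h replicate 2 and without E2F1 doxycycline 2 h replicate 1, and to 1 without E2F1 doxycycline 2 h replicate 2. At 6 h 3 were higher (Hbegf, Vegfa and Pdgfa) and 2 lower (Hgf and Igf1), where 51.7% of all genes passed (28.8% upward and 22.9% downward). At 12 h 2 were higher (Hbegf and Pdgfa) and 3 lower (Fgf7, Hgf and Igf1), where 61.5% of all genes passed (31.8% upward and 29.7% downward). The 6 h count fell to 3 without E2F1 0 h replicate 1, and the 12 h count to 3 without E2F1 0 h replicate 2. Median changes over the members were 0.04, -0.07 and -0.26 at the 3 times, near the all-gene medians of 0.02, -0.03 and -0.02.

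In the EV line, which has no insert, doxycycline gave 1 higher (Pdgfa) and 1 lower (Fgf7) at 2 h, where 7.35% of all genes passed (4.93% upward and 2.43% downward). The count was 1 without EV 0 h replicate 1 and without EV doxycycline 2 h replicate 2. At 6 h limma called 0 members, with 1 at an unadjusted p under 0.05 and 0.134% of all genes passing, all of them upward. At 12 h limma again called 0 members, with 2 at an unadjusted p under 0.05 and 4.17% of all genes passing (0.749% upward and 3.42% downward). No other tool was run on these values.

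**Figure D3:**
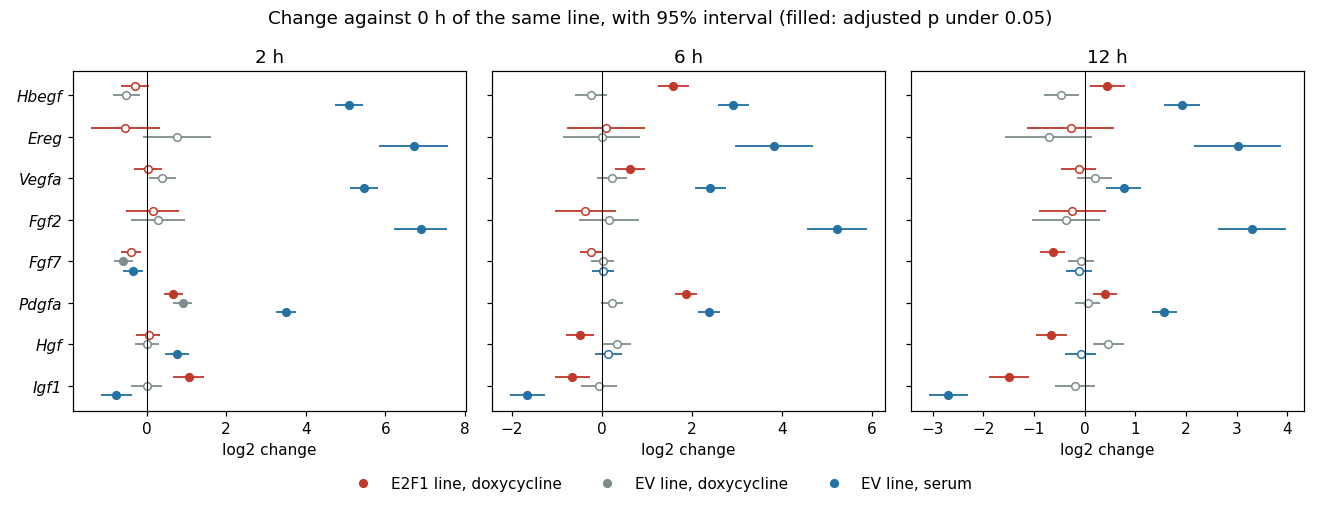
Log2 changes against 0 h of the same line for the 8 growth factors, with 95% limma intervals, after 2, 6 and 12 h of each stimulus. Serum intervals of Hbegf, Ereg, Vegfa, Fgf2 and Pdgfa lie far above 0, at 5.09, 6.71, 5.46, 6.89 and 3.50 after 2 h, while the doxycycline changes beyond 1 log2 unit are those of Pdgfa (1.87) and Hbegf (1.59) at 6 h and of Igf1 at 2 h (1.06) and 12 h (-1.49) in the E2F1 line.

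The doxycycline changes of the lines were compared directly, as the change in the E2F1 line minus the change in the EV line. At 2 h limma called 0 members, with 2 (Ereg and Igf1) at an unadjusted p under 0.05 and 0.143% of all genes passing (0.0535% upward and 0.0892% downward). For Igf1 this difference was 1.06 ± 0.26 (SE; limma adjusted p = 0.128), and it passed when only the groups compared were fitted (adjusted p = 0.035), the lowest of its alternatives, which reached 0.422. At 6 h 2 members had a higher change in the E2F1 line (Hbegf and Pdgfa) and 1 a lower one (Hgf), where 34.5% of all genes passed (22.2% upward and 12.3% downward). At 12 h 1 was higher (Hbegf) and 3 were lower (Fgf7, Hgf and Igf1), where 50.5% of all genes passed (27.3% upward and 23.3% downward).

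At 6 h the difference was largest for Hbegf and Pdgfa. For Hbegf it was 1.83 ± 0.23 (SE; limma adjusted p = 7.93e-06), and for Pdgfa 1.64 ± 0.16 (SE; limma adjusted p = 4.72e-07). Vegfa, called in the E2F1 line at 6 h, had a difference of 0.40 ± 0.23 (SE; limma adjusted p = 0.189), with an interval of -0.08 to 0.88, so its response was not shown to differ between the lines. At 12 h Igf1 differed by -1.29 ± 0.26 (SE; limma adjusted p = 0.000506), and Hgf by -1.12 ± 0.20 (SE; limma adjusted p = 0.000179). For Fgf7 the 12 h difference of -0.56 (limma adjusted p = 0.0109) was not past the threshold without E2F1 0 h replicate 1 (-0.40, adjusted p = 0.0731), without E2F1 doxycycline 12 h replicate 2 (-0.41, adjusted p = 0.07) or without EV 0 h replicate 2 (-0.47, adjusted p = 0.0513), and the lowest adjusted p over all alternatives was 0.00109.

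**Figure D4:**
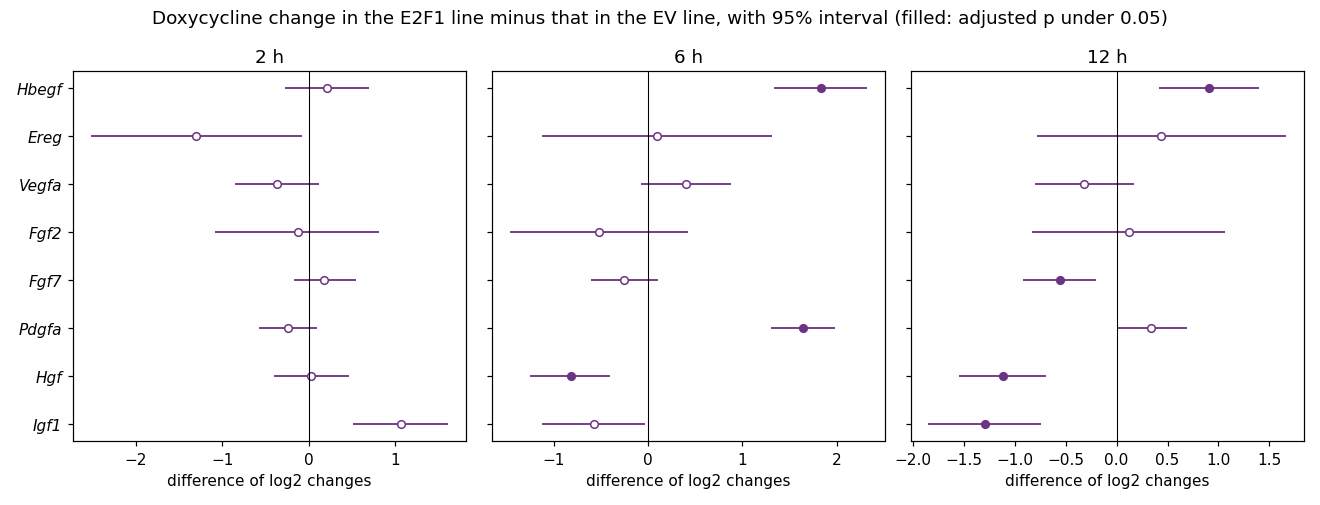
Difference of the doxycycline changes between the lines (E2F1 minus EV, log2 units) for the 8 growth factors at 2, 6 and 12 h, with 95% limma intervals. Hbegf (1.83) and Pdgfa (1.64) stand out to the right at 6 h, and Igf1 (-1.29) and Hgf (-1.12) to the left at 12 h.

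Serum was also compared with doxycycline in the same EV line at the same times. At 2 h 6 members were higher in serum (Hbegf, Ereg, Vegfa, Fgf2, Pdgfa and Hgf) and 1 lower (Igf1), where 67.1% of all genes passed (35.0% upward and 32.1% downward). At 6 h 5 were higher and 1 lower (Igf1), where 65.8% passed (35.8% upward and 30.0% downward). At 12 h 5 were higher and 2 lower (Hgf and Igf1), where 70.4% passed (37.9% upward and 32.5% downward). Fgf2 differed by 6.60 ± 0.32 (SE; limma adjusted p = 5.01e-12) at 2 h. Against doxycycline at 2 h the Hgf difference was 0.75 (limma adjusted p = 0.000171), and it was 0.31 with quantile normalization (adjusted p = 0.0567), the highest of its alternatives, which began at 4.8e-06. At 12 h the Vegfa difference of 0.58 (limma adjusted p = 0.00412) became 0.37 (adjusted p = 0.091) without EV doxycycline 12 h replicate 2 and 0.42 (adjusted p = 0.0677) without EV serum 12 h replicate 1, with 0.00103 as the lowest adjusted p.

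Changes with doxycycline in the E2F1 line, here the E2F1 change, were set against those with serum, each relative to 0 h of its own line. At 2 h 6 members had a lower E2F1 change and 1 a higher one (Igf1), where 56.7% of all genes passed (26.6% upward and 30.2% downward). At 6 h 6 were lower and 1 higher, where 57.9% passed (30.3% upward and 27.6% downward). At 12 h 7 were lower and 1 higher, where 48.8% passed (25.0% upward and 23.8% downward). Igf1 was the higher one each time, by 1.82 ± 0.26 (SE; limma adjusted p = 1.18e-05) at 2 h, when it was higher than at 0 h in the E2F1 line and lower in serum. The E2f1 row, which may not count the insert, was not above 0 h in those E2F1 2 h libraries. The Igf1 change there was not shown to differ from that of the EV line on doxycycline (limma adjusted p = 0.128). The 6 h and 12 h differences of Igf1 were 1.00 (limma adjusted p = 0.00335) and 1.21 (limma adjusted p = 0.00101), where both stimuli had lowered it.

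Of the 5 members that serum raised at all times, Pdgfa had the smallest difference between the stimuli at 2 h (-2.84; limma adjusted p = 1.95e-10) and 6 h, and Vegfa at 12 h (-0.90 against -1.17 for Pdgfa). At 6 h the Pdgfa E2F1 change minus its serum change was -0.51 ± 0.16 (SE; limma adjusted p = 0.0123), against -5.58 for Fgf2 (adjusted p = 1.1e-08), -3.73 for Ereg (adjusted p = 2.64e-05), -1.78 for Vegfa (adjusted p = 3.23e-06) and -1.33 for Hbegf (adjusted p = 9.95e-05) in limma. Without EV serum 6 h replicate 1 the Pdgfa value was -0.37 (adjusted p = 0.0761), with 0.00336 as the lowest adjusted p over its alternatives. The references of the 2 stimuli are different lines, which also differed at 0 h.

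Several smaller differences between the stimuli depended on single libraries or on the scaling. For Hgf the 2 h value of -0.72 (limma adjusted p = 0.00584) was -0.28 (adjusted p = 0.238) with quantile normalization and -0.34 (adjusted p = 0.141) with equal totals, with 0.00289 as the lowest adjusted p. Its 6 h value of -0.63 (limma adjusted p = 0.013) became -0.50 (adjusted p = 0.0727) without E2F1 0 h replicate 1, -0.47 (adjusted p = 0.0792) without E2F1 doxycycline 6 h replicate 2 and -0.52 (adjusted p = 0.0606) without EV 0 h replicate 1, with 0.00556 as the lowest. The 12 h value of Hgf, -0.58 (limma adjusted p = 0.0255), became -0.44 (adjusted p = 0.123) without E2F1 0 h replicate 1, -0.33 (adjusted p = 0.178) without E2F1 doxycycline 12 h replicate 2, -0.46 (adjusted p = 0.103) without EV 0 h replicate 1 and -0.55 (adjusted p = 0.0674) without EV serum 12 h replicate 2, with 0.00231 as the lowest. For Fgf7 the 12 h value of -0.52 (limma adjusted p = 0.017) became -0.37 without E2F1 0 h replicate 1 (adjusted p = 0.109) or E2F1 doxycycline 12 h replicate 2 (adjusted p = 0.102), and -0.43 (adjusted p = 0.0697) without EV 0 h replicate 2, with 0.00534 as the lowest.

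Before any stimulus the lines differed in 2 members, 1 higher and 1 lower in the E2F1 line, where 15.0% of all genes passed (8.86% upward and 6.17% downward). Igf1 was higher, with 1648 and 1465 against 807 and 970 in EV cells, by 0.81 ± 0.19 (SE; limma adjusted p = 0.00713). Fgf7 was lower, with 10379 and 8373 against 14984 and 13266, by -0.60 ± 0.12 (SE; limma adjusted p = 0.00294). The Igf1 difference was 0.73 (adjusted p = 0.0761) without E2F1 0 h replicate 1 and 0.68 (adjusted p = 0.0731) without EV 0 h replicate 1, with 0.00442 as the lowest adjusted p. The Fgf7 difference was -0.44 (adjusted p = 0.0589) without E2F1 0 h replicate 2, with 0.00115 as the lowest.

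Ordered by group mean, serum 2 h stood first for Hbegf, Ereg, Vegfa, Fgf2, Pdgfa and Hgf and was separate from the next group in each. Pdgfa had the clearest order, with 7 of 10 neighbouring groups separate: serum 2 h, serum 6 h, E2F1 6 h, serum 12 h, EV doxycycline 2 h, E2F1 2 h, E2F1 12 h and EV doxycycline 6 h followed each other without overlap. Fgf7 was highest in EV cells, where serum 6 h, doxycycline 6 h, 0 h, doxycycline 12 h and serum 12 h overlapped in turn, and the 4 groups of the E2F1 line were its lowest. Igf1 was highest at E2F1 2 h and E2F1 0 h and lowest at serum 12 h, with 6 of 10 neighbours separate. For Ereg and Fgf2 the groups below serum 12 h overlapped with few exceptions, and 4 of 10 neighbours were separate for each.

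Over the 11 group means on the log2 scale, Hbegf, Ereg, Vegfa, Fgf2 and Pdgfa were alike, with Pearson r from 0.87 for Fgf2 with Pdgfa to 0.97 for Ereg with Fgf2. These correlations are descriptions over groups that share libraries scaled together, and the serum groups carry most of the range. Igf1 had a negative r with each of them, from -0.33 (Vegfa) to -0.57 (Fgf2), and also with Fgf7 (-0.47) and Hgf (-0.12). Hgf was most like Fgf7 (r = 0.71), and Fgf7 had r of 0.07 with Pdgfa. Among all genes, the closest to Hbegf were Noct (r = 0.985), Yrdc (0.984) and Phlda1 (0.981), and the closest to Pdgfa were Btaf1 (0.993), Tacc2 (0.992) and Snhg15 (0.978). Smndc1 was closest to Ereg (0.992), Itga5 to Vegfa (0.990), Heatr5a to Fgf2 (0.994), Cebpd to Fgf7 (0.974), Lrp10 to Hgf (0.963) and Rnase4 to Igf1 (0.979).

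Other genes of these signalling pathways were taken from 4 fixed lists. Of 27 further symbols listed for the same ligand families, here the other ligands, 6 were in the table. At serum 2 h 1 of these 6 was higher and 5 were lower, where 37.5% of all genes were higher and 33.5% lower. Their median log2 change was -1.34, against 0.03 for all genes. Pdgfc, a further platelet-derived growth factor, rose from a mean of 3853.5 to 8353 (1.11 ± 0.14 SE; limma adjusted p = 1.02e-06). Fgf10, a relative of Fgf7 that signals to epithelium, fell (-2.54 ± 0.22 SE; limma adjusted p = 9.11e-09), as did Egf (-1.64; limma adjusted p = 0.000775). By serum 12 h 0 were higher and 3 lower, led by the ErbB ligand Nrg1 (-1.60; limma adjusted p = 1.34e-08) and by Vegfd (-0.95; limma adjusted p = 0.000226).

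Receptors and co-receptors numbered 19 of 25 in the table. At serum 2 h 12 were higher and 3 lower, with a median change of 0.45, where 37.5% of all genes were higher and 33.5% lower. Flt1, a Vegfa receptor, rose from a mean of 168 to 1806.5 (3.43 ± 0.25 SE; limma adjusted p = 8.76e-10), and the heparan sulfate proteoglycan Sdc4 rose by 2.59 (limma adjusted p = 9.8e-15). Pdgfra, the receptor of Pdgfa, fell from 64489 to 10315 (-2.64 ± 0.19 SE; limma adjusted p = 9.02e-10) while Pdgfa rose. It was still down at 12 h (-2.63; limma adjusted p = 2.65e-09), when 7 receptors were higher and 6 lower (36.0% and 29.7% of all genes), and Fgfr1 was lower by then too (-1.67; limma adjusted p = 3.92e-07).

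Of 19 proteases that release or activate ligands, 15 were in the table, and at serum 2 h 7 were higher and 4 lower, near the 37.5% and 33.5% of all genes. Adam12, a metalloprotease that can shed Hbegf, rose (3.15 ± 0.24 SE; limma adjusted p = 1.28e-09), and rose by less with doxycycline in the same line (1.16; limma adjusted p = 0.00702), a difference of 1.99 (limma adjusted p = 7.31e-07). Plau, which encodes urokinase, rose in serum too (2.89; limma adjusted p = 6.64e-08). Of 17 binding proteins and inhibitors 9 were in the table, and 5 were higher and 3 lower at serum 2 h, beside the same shares of all genes. Errfi1, a feedback inhibitor of EGFR, rose from a mean of 2676.5 to 24706 (3.33 ± 0.36 SE; limma adjusted p = 1.44e-07). Igfbp4, which binds insulin-like growth factors, was lower than at 0 h (-1.09; limma adjusted p = 7.33e-06), but by about as much with doxycycline at 2 h in the EV line (-1.13; limma adjusted p = 0.000553) and in the E2F1 line (-1.08; limma adjusted p = 0.00168). Serum and doxycycline differed by 0.04 for Igfbp4 in EV cells at 2 h (limma adjusted p = 0.849), and at serum 6 h its change was 0.31 (limma adjusted p = 0.0932).

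After 12 h of doxycycline in the E2F1 line, other ligands had 1 higher and 3 lower of 6, receptors 4 higher and 10 lower of 19, proteases 3 higher and 6 lower of 15, and binding proteins 1 higher and 6 lower of 9. Over all genes 31.8% passed upward and 29.7% downward in that comparison. Pdgfra fell (-1.21 ± 0.19 SE; limma adjusted p = 3.11e-05), as did Pdgfrb (-1.24; limma adjusted p = 1.58e-08), while the proteoglycan Gpc1 rose (1.27; limma adjusted p = 7.04e-07). Adam12 rose here as well (1.91; limma adjusted p = 1.89e-06), where its EV value was 0.03 (limma adjusted p = 0.973). Errfi1 fell in the E2F1 line (-1.37; limma adjusted p = 0.003), but its EV value at 12 h of doxycycline was similar (-1.23; limma adjusted p = 0.0618), with both EV libraries below the starved pair. The line difference of Errfi1 was -0.13 ± 0.51 (SE; limma adjusted p = 0.848), so its fall was not shown to differ between the lines. Vegfb, a relative of Vegfa, rose (0.83; limma adjusted p = 6.17e-06). In the EV line at 12 h of doxycycline limma called 0 genes of the 4 lists, with 0, 8, 0 and 2 at an unadjusted p under 0.05 among other ligands, receptors, proteases and binding proteins.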

How the data were processed

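Polyadenylated RNA of 22 NIH/3T3 libraries was sequenced as 150 bp paired reads, per the labels' protocols. FastQC, Trimmomatic, HISAT2, featureCounts and DESeq2 and the build mm10 are named in the submitters' processing notes. The authors deposited normalized counts rounded to whole numbers, which were treated as a score because they are no longer raw counts. In values from 50 to 349 the libraries held 234 to 299 of the 300 possible whole numbers, so raw reads were not recovered and the depth in reads is unknown. The authors' deposited tables give log2 fold changes and adjusted p-values and served for Vegfc and Areg.

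Libraries were grouped by the labels. Log2(value + 1) was fitted in limma 3.58.1 (R 4.3.3), with a mean for each of 11 groups over all 22 libraries, a mean-variance trend, and 11 residual degrees of freedom. P-values were adjusted by Benjamini-Hochberg over 11208 genes in each of the 19 comparisons, with a threshold of 0.05. Precision rests on 2 libraries per group. All members in the table are named. From each pathway list up to 2 rises and 2 falls of largest change were taken among called genes with separate libraries and a group mean of 50 or more. Alike genes are the 3 with the highest Pearson r over group means. Members and lists were chosen with earlier results of these data known. Alternatives were a pseudocount of 8, no filter in place of a value of at least 10 in 2 libraries, quantile normalization, equal totals, a fit of only the groups compared, the replicate number as a block, both doxycycline 2 h groups left out, and each replicate left out; a lone library is then assumed to vary like the other groups. Positions are from GENCODE M21 (GRCm38), in which 10977 gene identifiers of the table occurred. In simulated data for 11208 genes in the serum 2 h comparison, 93 of 100 changes of size 1 and 100 of 100 of size 2 (log2) were recovered, with 13 unchanged genes called. Python 3.11.15, pandas 2.3.3, numpy 2.4.6 and matplotlib 3.10.9 made tables and figures.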

Additional observations from a re-analysis of the deposited data

Results flagged for a closer look

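The doxycycline change differed between the lines, by a test of the difference itself (limma, E2F1 line minus EV line), for 7 results. At 6 h these were Hbegf (1.83, SE 0.23, adjusted p = 7.93e-06), Pdgfa (1.64, SE 0.16, adjusted p = 4.72e-07) and Hgf (-0.82, SE 0.20, adjusted p = 0.00416). At 12 h they were Hbegf (0.91, SE 0.23, adjusted p = 0.00345), Fgf7 (-0.56, SE 0.17, adjusted p = 0.0109), Hgf (-1.12, SE 0.20, adjusted p = 0.000179) and Igf1 (-1.29, SE 0.26, adjusted p = 0.000506). Among all genes 34.5% differed between the lines at 6 h and 50.5% at 12 h. The member counts, 3 of 8 at 6 h and 4 of 8 at 12 h, were near these shares. The number of differing members thus does not set the growth factors apart from other genes. At 12 h Hgf fell by 0.66 in the E2F1 line (limma adjusted p = 0.000687), and its EV change was 0.46 (limma adjusted p = 0.0818). The 12 h change of Hbegf was 0.45 in the E2F1 line (limma adjusted p = 0.0259). In the EV line it was -0.46 (limma adjusted p = 0.142), with both libraries below the starved pair, so the Hbegf difference is not a rise in the E2F1 line alone.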

How the results depend on the processing

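Of 152 growth factor results (8 members in 19 comparisons, limma) 85 were called. The share of all genes called ran from 0.134% at EV doxycycline 6 h to 70.9% at serum 2 h. Member counts here are to be read against the all-gene share of each comparison, given above for the main fit. Under the alternatives 0 of these 85 changed sign, 65 stayed past the threshold under every one run, and 20 lost it under at least 1, 4 of them with all libraries kept. A pseudocount of 8 and the replicate block changed none of the 152 calls. The filter removed 0 of the 11208 genes, so the run without it repeated the main fit and is no separate check. Leaving out both doxycycline 2 h groups changed none of the 112 results that do not use them. With the replicate block the member counts in the comparisons with 0 h were 2, 5 and 5 for E2F1, 2, 0 and 0 for EV doxycycline and 8, 6 and 6 for serum at 2, 6 and 12 h. The replicate numbers were not used to pair libraries in the main fit. Over 55 pairs of groups the correlation of same-numbered deviations ran from -0.28 to 0.45, with a median of 0.03, and exceeded 0.1 in 18. These values do not decide whether some same-numbered libraries belong together. The count of the line difference at 6 h was 5 with quantile normalization (3 as reported), and at 2 h it was 1 with only the groups compared (0 as reported). Leaving out 1 library gave counts of 0 to 2 for E2F1 2 h, 3 to 5 for E2F1 6 h, 3 to 5 for E2F1 12 h, 1 to 2 for EV doxycycline 2 h and 1 to 2 for the lines at 0 h. Equal totals moved the median of all genes by -0.374 at serum 2 h, -0.214 at serum 6 h and -0.117 at E2F1 6 h, and quantile normalization by -0.106 at E2F1 6 h. The causes were not tested.

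Results that changed sign had not been called, 33 in all. With quantile normalization these were Hgf at EV doxycycline 2 h (-0.00), Fgf7 at serum 6 h (-0.31, adjusted p = 0.0319), Hgf at serum 6 h (-0.13), the Ereg line difference at 6 h (-0.04), Fgf7 in serum against doxycycline at 2 h (-0.28) and 6 h (-0.33, adjusted p = 0.025), the Fgf7 E2F1 minus serum change at 2 h (0.43, adjusted p = 0.045) and Pdgfa between the lines at 0 h (-0.01). Over all their alternatives the adjusted p of those 3 Fgf7 results past the threshold reached 0.87, 0.945 and 0.948. With equal totals they were Ereg at E2F1 6 h (-0.03), Igf1 at EV doxycycline 2 h (0.01), Ereg at EV doxycycline 6 h (-0.01), Fgf7 at serum 6 h (-0.18), Hgf at serum 6 h (-0.07), the Ereg line difference at 6 h (-0.02), Fgf7 in serum against doxycycline at 2 h (-0.16) and 6 h (-0.19), and the Fgf7 E2F1 minus serum change at 2 h (0.32).

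Leaving out 1 library in turn also turned the sign of small changes, given here as ranges. Vegfa ran from -0.17 to 0.24 at E2F1 2 h, -0.32 to 0.08 at E2F1 12 h, -0.01 to 0.40 at EV doxycycline 12 h and -0.03 to 0.38 between the lines at 0 h. Hgf ran from -0.09 to 0.18 at E2F1 2 h, -0.14 to 0.17 at EV doxycycline 2 h, -0.19 to 0.03 at serum 12 h and -0.12 to 0.18 in the line difference at 2 h. Ereg ran from -0.46 to 0.64 at E2F1 6 h, -0.67 to 0.14 at E2F1 12 h, -0.42 to 0.43 at EV doxycycline 6 h, and -0.46 to 0.64 and -0.07 to 0.96 in the line difference at 6 and 12 h. Fgf2 ran from -0.28 to 0.86, -0.41 to 0.73 and -0.93 to 0.21 at EV doxycycline 2, 6 and 12 h, from -0.70 to 0.44, -1.09 to 0.05 and -0.45 to 0.69 in the line difference, and from -0.24 to 0.90 between the lines at 0 h. Fgf7 ran from -0.07 to 0.11 and -0.16 to 0.02 at EV doxycycline 6 and 12 h, -0.13 to 0.19 at serum 6 h, -0.15 to 0.17 and -0.10 to 0.03 in serum against doxycycline at 6 and 12 h, and -0.21 to 0.10 for E2F1 minus serum at 2 h. Between the lines at 0 h Hbegf ran from -0.06 to 0.27 and Pdgfa from -0.01 to 0.09, and Pdgfa ran from -0.07 to 0.19 at EV doxycycline 12 h. Igf1 ran from -0.18 to 0.17 and -0.20 to 0.07 at EV doxycycline 2 and 6 h. Depth in reads is unknown, and what it limits was not tested. Replicates differed most for Ereg (median 0.73 log2 units) and by 0.25 for Fgf2, which had 70 to 164 normalized counts without serum.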
